A study of Sus scrofa with 12 samples.

Results

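Expression of 5 pig genes, KBTBD6, PAMR1, ZNF791, ABT1 and FJX1, was described in 2 parthenogenetic embryonic stem cell (ESC) lines, in an ESC line derived after in vitro fertilisation (IVF), and in fetal fibroblasts. The genes had been grouped for far lower levels in both parthenogenetic lines than in the IVF line, and as genes taken not to be imprinted. Each was represented by its annotated row with the highest mean in the deposited expression table, which gave 5 of 30012 rows. The symbols stood on 7 rows in all, because PAMR1 and ABT1 each had a second row. Their levels in the ESC lines had chosen the genes, so the differences from IVF ESC11 are given as a description, with no test. Low levels in both parthenogenetic lines chose the genes too, so a small difference between those lines is likewise no finding for the low rows. Lower levels in the parthenogenetic lines were seen for KBTBD6, PAMR1, ZNF791 and FJX1, and FJX1 kept 1.85 to 2.12 FPKM there. They were not seen for the row of ABT1 that the rule chose, which was higher in the parthenogenetic lines, while the second ABT1 row was nearly absent there. Whether any of the 5 genes is imprinted was not tested.

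RNA from 12 libraries was sequenced, 3 each of PG ESC3, PG ESC7, IVF ESC11 and fetal fibroblasts. PG marks a line from a parthenogenetic embryo, and each ESC group was a line of its own, so embryo origin and line cannot be told apart. All 3 lines grew on feeder cells with 15% KSR, 20 ng/mL FGF2, 5 ng/mL ActA, 1.5 µM CH and 2.5 µM IWR-1, with 10 µM Y-27632 around passaging, and SSEA1-positive cells were taken on magnetic columns before RNA extraction. Fibroblasts of a day 30 fetus were used at passage 6. Breed and genotype of the animals were not given in the sources used here, nor whether the libraries of a group were separate cultures. Levels are FPKM, in which fragments are scaled to transcript length and to the mapped fragments of a library. The read depth is unknown, but steps in the low values gave depths of 0.742 to 0.901 in the PG libraries, 0.966 to 1.21 in IVF ESC11 and 0.901 to 1.0 in fibroblasts, relative to fibroblast replicate 1.

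A parthenogenetic embryo develops from an activated egg without sperm, so all of its chromosomes come from the mother. Imprinted genes read only from the paternal copy are therefore silent in such cells, whereas genes read from both parental copies have no such limit. The table holds no allele-resolved values, and which parental copy of the 5 genes was read was not tested. KBTBD6 is a substrate adaptor of the CUL3 ubiquitin ligase, and ZNF791 is a zinc finger protein of the KRAB family of DNA-binding repressors. PAMR1 is a secreted protein with CUB and peptidase-like domains, and FJX1 is the mammalian counterpart of four-jointed, in the fly a Golgi kinase of Fat and Dachsous cadherins. ABT1 is a nucleolar protein whose yeast counterpart takes part in small-subunit ribosomal RNA processing.

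The cells carried the markers of their labels. POU5F1, the core pluripotency factor, averaged 739 FPKM in PG ESC3, 756 in PG ESC7, 775 in IVF ESC11 and 0.0248 in fibroblasts, and of 4 tested pluripotency genes none was called by limma between the PG and IVF lines (1 had an unadjusted p under 0.05, as had 32.8% of all tested rows, while 2.2% were called). The summed FPKM of 7 fibroblast markers was 80.6 to 106 in PG ESC3, 69.9 to 81.8 in PG ESC7, 64.5 to 68.7 in IVF ESC11 and 17506 to 17844 in fibroblasts, and LUM was listed at 0 in every PG ESC3 library and POSTN in every IVF ESC11 library. The list of 5 paternally expressed imprinted genes was chosen with earlier results of these data known, so it is no independent check of the labels. All 5 were called lower in the PG lines than in IVF ESC11, where 0.678% of the 18278 tested rows were called lower. SNRPN, the strongest of them, averaged 0.143 FPKM in PG ESC3, 0.126 in PG ESC7, 154 in IVF ESC11 and 27.4 in fibroblasts. Calls needed an adjusted p under 0.05 (limma, Benjamini-Hochberg) together with an absolute difference of at least 1 in log2(FPKM + 1).

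KBTBD6 (ENSSSCG00000009438.L01, Sscrofa10.2 chromosome 11, 26509194 to 26510909, minus strand) was listed at 0 in all 3 PG ESC3 and all 3 PG ESC7 libraries. It had 12.8, 11.6 and 12.9 FPKM in IVF ESC11 and 4.21, 4.06 and 5.44 FPKM in fibroblasts. No other of the 5 genes was listed at 0 throughout both PG lines. The means were 12.4 ± 0.738 FPKM in IVF ESC11 and 4.57 ± 0.758 in fibroblasts (SD, n = 3 each), so the levels ran from the PG lines through fibroblasts to IVF ESC11 with no overlap between neighbours. No fold is given against libraries listed at 0. On the log2(FPKM + 1) scale, which understates the change of low genes, the PG lines minus IVF ESC11 gave -3.75, rank 19 from the lowest of the tested rows.

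ZNF791 (ENSSSCG00000029347.L01, chromosome 2, 66774475 to 66825204, minus strand) was near the bottom of the scale in both PG lines. Its values were 0.136, 0.121 and 0.0211 FPKM in PG ESC3 and 0.151, 0.101 and 0.178 in PG ESC7. IVF ESC11 had 3.72, 3.34 and 3.42 FPKM, and fibroblasts had 3.15, 4.14 and 4.44. Every PG library was below every other library, and IVF ESC11 lay within the range of the fibroblasts. The PG mean was 3.38% of the IVF ESC11 mean, and the log2 difference was -2.01 ± 0.08 (SE). For ZNF791, PG ESC7 minus PG ESC3 was 0.07 ± 0.10 (SE), within the spread of the libraries.

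PAMR1 (ENSSSCG00000028338.L01, chromosome 2, 27783616 to 27954885, plus strand) had 0.399, 0.590 and 0.372 FPKM in PG ESC3 and 0.396, 0.523 and 0.463 in PG ESC7. In IVF ESC11 it had 5.04, 5.57 and 4.66 FPKM, and in fibroblasts 2.72, 1.82 and 2.41. All 6 PG libraries were below all fibroblast libraries, which were below all IVF ESC11 libraries. The PG mean was 8.98% of that of IVF ESC11, with a log2 difference of -2.06 ± 0.09 (SE). The PG lines overlapped, with 0.01 ± 0.11 (SE) for PG ESC7 minus PG ESC3. The second PAMR1 row (ENSSSCG00000028338.L02), marked in the table as absent from the annotation and on the opposite strand inside the first, averaged 0.0595 FPKM in PG ESC3, 0.0503 in PG ESC7, 0.761 in IVF ESC11 and 0.326 in fibroblasts. It stayed under the filter of 1 FPKM in 3 libraries and was not tested.

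FJX1 (ENSSSCG00000025588.L01, chromosome 2, 27783602 to 27786662, minus strand) had 1.99, 1.89 and 1.85 FPKM in PG ESC3 and 1.99, 2.12 and 1.86 in PG ESC7. It had 13.0, 14.9 and 14.4 FPKM in IVF ESC11 and 13.8, 14.5 and 14.2 in fibroblasts. FJX1 kept the highest PG level of the 4 genes that were lower, and IVF ESC11 and fibroblasts overlapped. The PG mean was 13.8% of that of IVF ESC11, with a log2 difference of -2.35 ± 0.05 (SE). PG ESC7 minus PG ESC3 was 0.04 ± 0.06 (SE), and the libraries of these lines overlapped. Of the 3061 bp of the FJX1 row, 3047 (99.5%) lay inside the 171.27 kb row of PAMR1, on the other strand. Strand use in counting was not given in the sources used here, so reads from the shared stretch cannot be told apart, and FJX1 and PAMR1 are not independent observations. Their fibroblast levels did not run alike, since fibroblasts were at 101% of the IVF ESC11 mean for FJX1 and at 45.5% for PAMR1. In bulk RNA, fewer cells with a transcript and less transcript per cell cannot be told apart for any of the 5 genes.

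**Figure D1:**
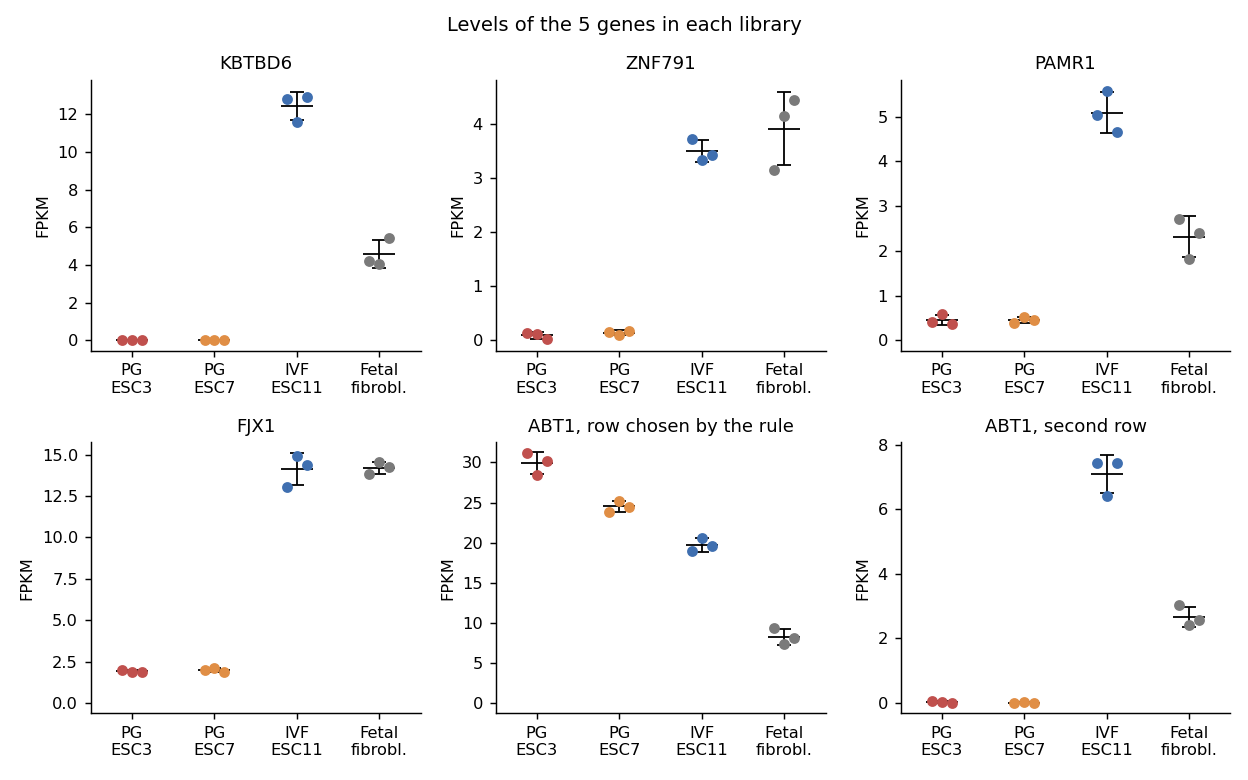
FPKM (y axis, linear, from 0) of KBTBD6, ZNF791, PAMR1, FJX1 and both ABT1 rows in PG ESC3, PG ESC7, IVF ESC11 and fetal fibroblasts, with a point for each library and bars for the mean and SD of 3 libraries. KBTBD6 lies at 0 in all 6 PG libraries, the row of ABT1 chosen by the rule is highest in PG ESC3 (28.4 to 31.2 FPKM), and the second ABT1 row is at most 0.0643 FPKM in the PG lines.

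ABT1 went against its label on the row chosen by the rule (ENSSSCG00000022394.L01, chromosome 7, 22187172 to 22190343, plus strand). That row had 31.2, 28.4 and 30.1 FPKM in PG ESC3 and 23.9, 25.2 and 24.5 in PG ESC7. It had 19.0, 20.6 and 19.6 FPKM in IVF ESC11 and 9.34, 7.37 and 8.07 in fibroblasts. The order was PG ESC3, PG ESC7, IVF ESC11 and fibroblasts from high to low, with no overlap between neighbours. The PG mean was 138% of that of IVF ESC11, with a log2 difference of 0.44 ± 0.06 (SE), rank 16980 from the lowest of the tested rows. PG ESC7 was lower than PG ESC3 by -0.28 ± 0.07 on the log2 scale (limma, adjusted p = 0.0115), which is under the fold minimum for a call. Of all tested rows, 3.38% were called in that comparison and 39.9% passed the adjusted p at any size.

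The second ABT1 row (ENSSSCG00000027958, chromosome 7, 22544483 to 22547649, minus strand) lay 354.14 kb away, and both rows cite the same protein entry in their descriptions. It had 0.0643, 0.0340 and 0 FPKM in PG ESC3 and 0, 0.0282 and 0 in PG ESC7. In IVF ESC11 it had 7.44, 6.39 and 7.42 FPKM, and in fibroblasts 3.02, 2.42 and 2.56. As with KBTBD6, the PG libraries were at or near 0, with a PG mean at 0.298% of the IVF ESC11 mean and a log2 difference of -2.98 ± 0.06 (SE). It held 0 to 0.206% of the summed ABT1 level in PG ESC3, 0 to 0.112% in PG ESC7, 23.7 to 28.2% in IVF ESC11 and 24.1 to 24.7% in fibroblasts. The PG lines overlapped, with -0.03 for PG ESC7 minus PG ESC3.

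With both rows summed, a setting chosen after the values were seen, ABT1 averaged 29.9 ± 1.40 FPKM in PG ESC3, 24.5 ± 0.687 in PG ESC7, 26.8 ± 0.347 in IVF ESC11 and 10.9 ± 1.31 in fibroblasts (SD, n = 3 each). IVF ESC11 then lay between the PG lines, and the log2 difference of the PG lines from it was 0.02 ± 0.06 (SE). RefSeq's gene table for Sscrofa11.1, a later assembly than that of the files, lists 1 ABT1 gene. PAMR1 and FJX1 were matched in that table by symbol, and KBTBD6 and ZNF791 were not, so their names here are those of the deposited table. Reads that match both rows may have been divided between them by the counting, whose handling of such reads was not given in the sources used here, so the level on each ABT1 row is uncertain.

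**Figure D2:**
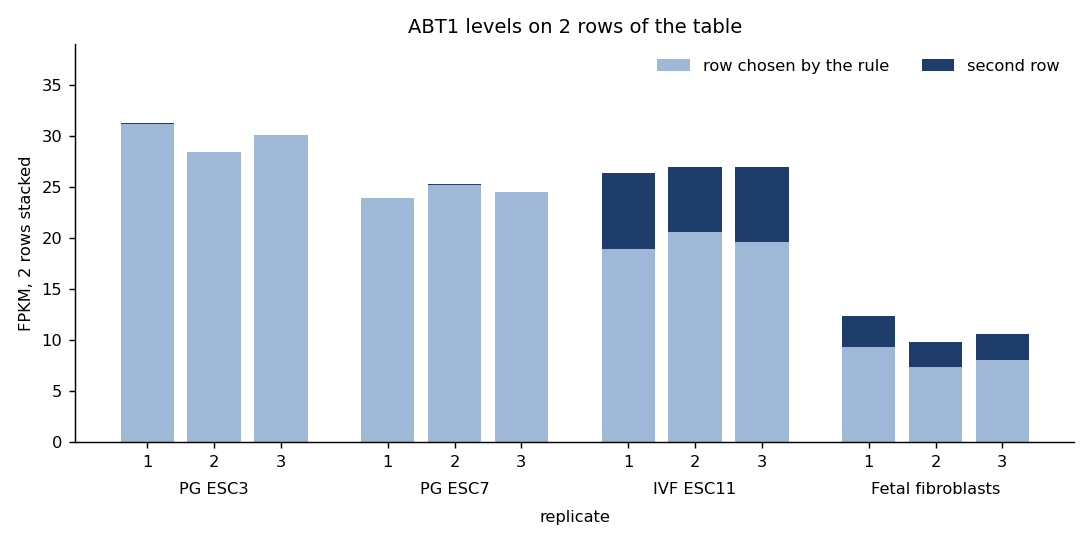
FPKM (y axis, linear, from 0) of the 2 ABT1 rows stacked for each of the 3 libraries of PG ESC3, PG ESC7, IVF ESC11 and fetal fibroblasts. The dark second row makes up 23.7 to 28.2% of the bar in IVF ESC11 and 24.1 to 24.7% in fibroblasts, and at most 0.206% in the PG lines.

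On the rows chosen by the rule, 4 of 5 genes had all 6 PG libraries below all 3 IVF ESC11 libraries, and ABT1 had all 6 above. Over all tested rows, 4.48% lay below and 8.38% above without overlap, and nothing is read from the members' count, since these values chose them. By the deposited coordinates the genes lay on chromosomes 2, 7 and 11. PAMR1 and FJX1 shared a locus, and ZNF791 lay 38.99 Mb from them.

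The rows within 500 kb of each gene were compared to see whether neighbours had similar differences. There were 93 such rows without those of the 5 symbols, of which 62 were tested. 1 flanking row was called between the PG lines and IVF ESC11 (1.61%), against 2.2% of all tested rows. Taken line by line, 2 flanking rows were called in PG ESC3 minus IVF ESC11, against 2.48% of all tested rows, and 1 in PG ESC7 minus IVF ESC11, against 2.94%. At any size, 13 of the 62 passed the adjusted p, against 19.7% of all tested rows. Without overlap, 5 of the 62 were below IVF ESC11 and 6 above, against 4.48% and 8.38% of all tested rows. Of the 5 below, 2 lay around PAMR1 and FJX1 and 3 around ZNF791. MUC16, among the latter, passed the filter through IVF ESC11 alone. The median log2 difference of the flanking rows was -0.02, against 0.02 for all tested rows.

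The row called between the PG lines and IVF ESC11, and in each PG line, was TRIM44 (ENSSSCG00000013295.L01, chromosome 2, 27633860 to 27737927), a tripartite motif protein gene 45.7 kb from FJX1 and PAMR1. It had 1.73, 1.60 and 1.75 FPKM in PG ESC3 and 0.417, 0.464 and 0.421 in PG ESC7. It had 4.94, 4.597 and 4.78 FPKM in IVF ESC11 and 13.5, 13.5 and 13.1 in fibroblasts. All 4 groups stood apart for TRIM44, with fibroblasts highest, whereas the PG lines overlapped for FJX1 and PAMR1. TRIM44 fell by 1.55 ± 0.04 on the log2 scale in the PG lines relative to IVF ESC11 (limma, adjusted p = 2.68e-09), by 1.10 in PG ESC3 and by 2.01 in PG ESC7. With a pseudocount of 5 in place of 1 the difference was -0.70, under the fold minimum, and no flanking row was called.

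Farther out on the TRIM44 side, LDLRAD3, a receptor-family membrane protein gene 293 kb away, averaged 6.02 ± 0.472 FPKM in PG ESC3, 4.67 ± 0.890 in PG ESC7 and 8.89 ± 1.07 in IVF ESC11 (SD, n = 3 each). Its log2 difference was -0.65 ± 0.12 (limma, adjusted p = 0.0045), with every PG library below every IVF ESC11 library; it was named after its values were seen. On the other side of PAMR1, CD44, a hyaluronan receptor gene 201 kb away, averaged 4.28 FPKM in PG ESC3, 5.35 in PG ESC7, 5.12 in IVF ESC11 and 171 in fibroblasts. CD44 differed by -0.08 ± 0.07 between the PG lines and IVF ESC11 (limma, adjusted p = 0.492). Of the 5 tested rows around PAMR1, 2 lay below IVF ESC11 without overlap, TRIM44 and LDLRAD3, both on the same side. LDLRAD3 was under the fold minimum, and 19.7% of all tested rows passed the adjusted p at any size. Between them lay a tested row without a symbol, 150 kb from PAMR1 (-0.10 ± 0.10, limma, adjusted p = 0.505). It averaged 0.154 FPKM in IVF ESC11 and passed the filter through fibroblasts (1.47 FPKM). A fall could hardly show at that level, so nothing is read from it. An untested row beside it, also without a symbol, was below IVF ESC11 without overlap, but near the floor (0.0406 FPKM in the PG lines, 0.254 in IVF ESC11). The nearest tested row on the other side, CD44, did not pass the test.

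**Figure D3:**
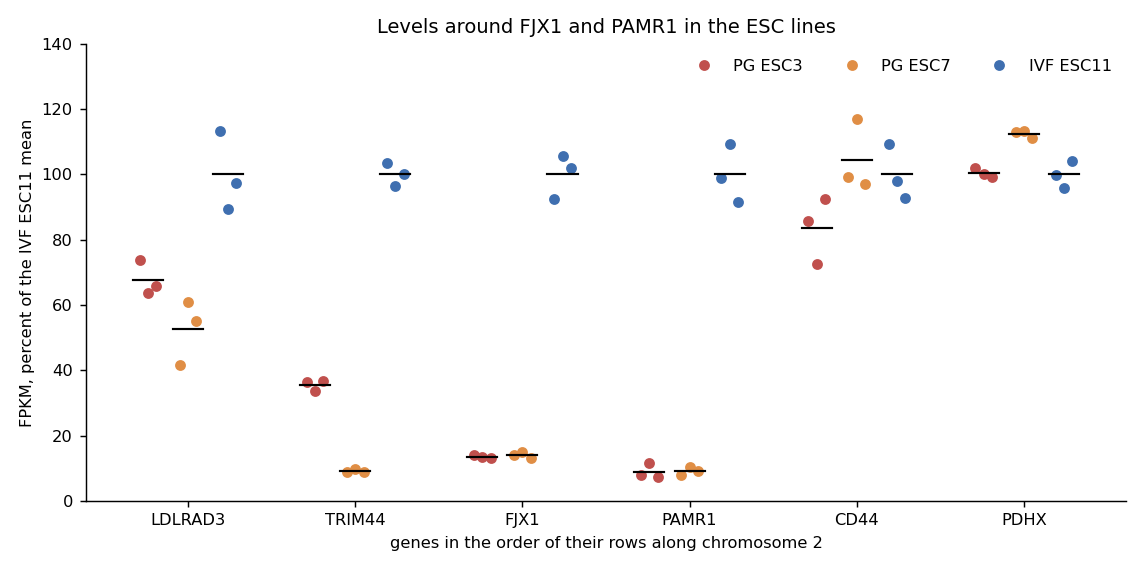
FPKM as a percent of the IVF ESC11 mean (y axis, linear, from 0) for LDLRAD3, TRIM44, FJX1, PAMR1, CD44 and PDHX in the order of their rows on chromosome 2, with a point for each library of PG ESC3, PG ESC7 and IVF ESC11 and a line for the mean of 3 libraries. FJX1 and PAMR1 lie low in both PG lines (13.8% and 8.98% over the 6 libraries), TRIM44 lies lower in PG ESC7 than in PG ESC3, and CD44 and PDHX lie around the IVF ESC11 mean.

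Around KBTBD6, 14 flanking rows were tested between the PG lines and IVF ESC11, with a median difference of 0.01. None was called by limma, and 4 had an unadjusted p under 0.05, against 32.8% of all tested rows. KBTBD7, the close paralogue that works with KBTBD6 as a CUL3 adaptor, lay 58.668 kb away. It had 9.18, 10.25 and 9.19 FPKM in PG ESC3, 10.3, 10.1 and 11.7 in PG ESC7, and 10.24, 9.89 and 8.89 in IVF ESC11, with a mean of 2.72 in fibroblasts. The ESC lines overlapped for KBTBD7, with a difference of 0.06 ± 0.07 (limma, adjusted p = 0.638). SUGT1, a co-chaperone gene 50.1 kb away on the other side, averaged 80.9 FPKM in PG ESC3, 73.7 in PG ESC7 and 77.4 in IVF ESC11 (difference -0.00 ± 0.03, adjusted p = 0.987).

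PCDH8 (ENSSSCG00000009445.L01), a protocadherin gene 371 kb from KBTBD6, went the other way. It had 4.71, 4.93 and 4.78 FPKM in PG ESC3, 2.58, 2.74 and 2.18 in PG ESC7, and 1.58, 1.71 and 1.56 in IVF ESC11, with a mean of 0.0521 in fibroblasts. No groups overlapped for PCDH8, and PG ESC3 was highest. Over both PG lines it was higher by 0.78 ± 0.05 on the log2 scale (limma, adjusted p = 5.38e-06), under the fold minimum. In PG ESC3 minus IVF ESC11 it was called higher, by 1.15 ± 0.06 (adjusted p = 8.33e-07), and in PG ESC7 minus IVF ESC11 the difference was 0.42 ± 0.06 (adjusted p = 0.000802).

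Around ZNF791, 31 of 38 flanking rows were tested, with a median difference of -0.03. None was called by limma, and 10 had an unadjusted p under 0.05, against 32.8% of all tested rows. Without overlap, 3 of the 31 were below IVF ESC11 and 3 above, none past the fold minimum. Those below, all on the same side, were MUC16 (-0.55, limma, adjusted p = 4.08e-06), a ZNF709 row 256 kb away (-0.44, adjusted p = 0.000298) and ZNF136 (-0.45, adjusted p = 0.00388). MAN2B1, a lysosomal mannosidase gene 49.7 kb away, averaged 39.1 FPKM in PG ESC3, 40.7 in PG ESC7 and 35.0 in IVF ESC11. It was higher in the PG lines by 0.18 ± 0.03 (limma, adjusted p = 0.00176), under the fold minimum. The nearest row on the other side carries the symbol ZNF709 (ENSSSCG00000022634.L01, 19.8 kb away), a zinc finger gene, and averaged 18.4 FPKM in PG ESC3, 20.7 in PG ESC7 and 19.1 in IVF ESC11 (difference 0.02 ± 0.13, adjusted p = 0.923). ZNF709 stands on several rows of this zinc finger cluster, and reads of related genes may be divided among them.

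Around the ABT1 row chosen by the rule, 12 of 34 flanking rows were tested between the PG lines and IVF ESC11, with a median of 0.12. None was called by limma, and 3 had an unadjusted p under 0.05, against 32.8% of all tested rows. HMGN4, a nucleosome-binding protein gene 21.6 kb away, averaged 6.31 FPKM in PG ESC3, 7.95 in PG ESC7 and 6.56 in IVF ESC11 (difference 0.09 ± 0.09, limma, adjusted p = 0.532). ZNF322, a zinc finger gene 322 kb away on the side of the second ABT1 row, averaged 14.7 FPKM in PG ESC3, 15.1 in PG ESC7 and 13.3 in IVF ESC11 (difference 0.15 ± 0.05, adjusted p = 0.0499). The second ABT1 row was nearly absent from the PG lines, and no tested row of this window was called lower there than in IVF ESC11. The window was drawn around the row chosen by the rule, so most of the 500 kb beyond the second row was not examined. In PG ESC7 minus PG ESC3, a pair of histone gene rows within 500 kb was called lower. HIST1H2BM (ENSSSCG00000021411.L01, 134 kb away) averaged 0.929 FPKM in PG ESC7, 3.03 in PG ESC3, 1.69 in IVF ESC11 and 9.13 in fibroblasts, and PG ESC7 minus PG ESC3 was -1.04 ± 0.14 (limma, adjusted p = 0.000194). HIST1H3E (ENSSSCG00000028829, 107 kb away) averaged 2.51 FPKM in PG ESC7, 7.05 in PG ESC3, 3.36 in IVF ESC11 and 1.01 in fibroblasts, and the same difference was -1.16 ± 0.29 (adjusted p = 0.0101). Histone genes have near-identical copies, so the levels on these rows are uncertain.

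**Figure D4:**
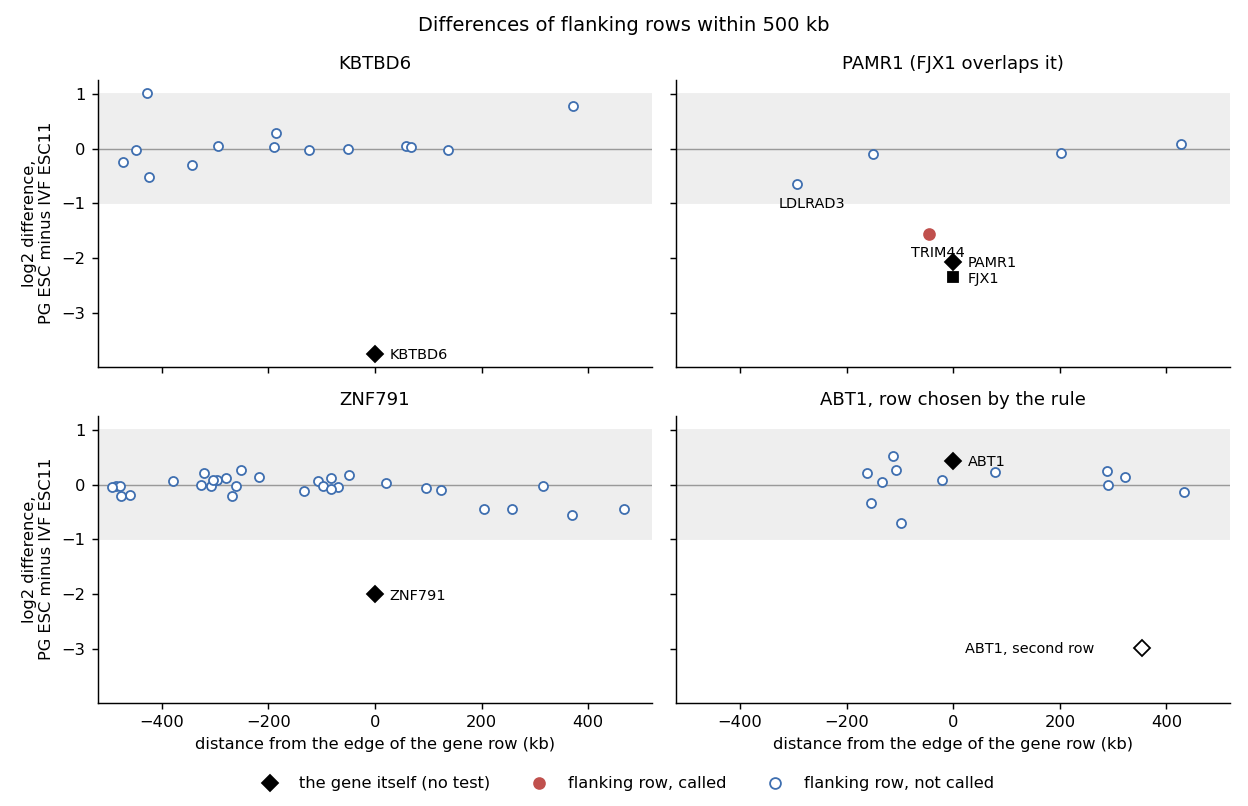
Log2 difference in FPKM + 1, PG lines minus IVF ESC11 (y axis), of the tested rows within 500 kb of KBTBD6, PAMR1, ZNF791 and ABT1 by distance from the edge of the gene's row (x axis, kb). Black symbols are the genes themselves, which were not tested; red is the called row, TRIM44 (-1.55), open circles are rows not called, and grey marks differences under the fold minimum of 1.

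Genes of the pathways around the 5 were taken from lists chosen with earlier results of these data known, and none of their members was called by limma between the PG lines and IVF ESC11, where 2.2% of all tested rows were called and 32.8% had an unadjusted p under 0.05. Of the 6 tested KBTBD genes none had an unadjusted p under 0.05. Their median difference was 0.06, and KBTBD2, the most abundant, averaged 18.4 FPKM in PG ESC3, 17.2 in PG ESC7 and 17.1 in IVF ESC11 (0.06 ± 0.04, limma, adjusted p = 0.295). KBTBD4 averaged 17.8 FPKM in PG ESC3, 15.0 in PG ESC7 and 16.8 in IVF ESC11 (-0.04 ± 0.05, adjusted p = 0.586). The 9 genes of the CUL3 ligase and the partners of KBTBD6 had a median of 0.02, with 2 at an unadjusted p under 0.05. Among them RBX1 was read from an 890 bp row marked as absent from the annotation. That row averaged 1.84 FPKM in PG ESC3, 2.02 in PG ESC7 and 1.70 in IVF ESC11. RAC1, the small GTPase whose activator TIAM1 is a substrate of the KBTBD6 ligase, averaged 146 FPKM in PG ESC3, 142 in PG ESC7 and 163 in IVF ESC11. It differed by -0.18 ± 0.03 (adjusted p = 0.00139), under the fold minimum, and TIAM1 itself by 0.02 ± 0.06 (adjusted p = 0.878). NEDD8, the modifier that activates cullins, differed by -0.14 ± 0.13 (adjusted p = 0.503).

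The 7 tested CUB-domain proteases had a median of 0.02, with 3 at an unadjusted p under 0.05. BMP1, the procollagen C-proteinase, averaged 7.59 FPKM in PG ESC3, 8.79 in PG ESC7, 6.19 in IVF ESC11 and 93.4 in fibroblasts (0.35 ± 0.06, limma, adjusted p = 0.00164). MASP1, a complement lectin-pathway protease, averaged 0.143 FPKM in PG ESC3, 0.529 in PG ESC7, 0.175 in IVF ESC11 and 132 in fibroblasts (0.17 ± 0.08, adjusted p = 0.183). The highest means of both were in fibroblasts, and that of PAMR1 was in IVF ESC11. The 9 tested corepressors and partners of KRAB zinc finger proteins had a median of -0.02, with 2 at an unadjusted p under 0.05. CBX1, a heterochromatin protein, averaged 106 FPKM in PG ESC3, 102 in PG ESC7 and 115 in IVF ESC11 (-0.15 ± 0.04, adjusted p = 0.0329), and PPHLN1, a subunit of the HUSH silencing complex, differed by 0.13 ± 0.09 (adjusted p = 0.356).

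The 31 tested genes of small-subunit ribosomal RNA processing had a median of -0.02, with 15 at an unadjusted p under 0.05. NOP58, a box C/D snoRNP core protein, averaged 233 FPKM in PG ESC3, 209 in PG ESC7 and 219 in IVF ESC11 (0.01 ± 0.03, limma, adjusted p = 0.799). FBL, the methyltransferase of the same particles, averaged 207 FPKM in PG ESC3, 176 in PG ESC7 and 194 in IVF ESC11 (-0.02 ± 0.04, adjusted p = 0.716). In PG ESC7 minus PG ESC3 the median of this list was -0.24, against 0.02 for all tested rows, with none of the 31 called. At any size, 22 of the 31 passed the adjusted p there, 21 of them lower, against 39.9% of all tested rows in either direction. Other lists moved in that comparison too. The 4 tested pluripotency genes had a median of -0.18, with 3 past the adjusted p, all lower. The 5 tested genes taken as expressed in every cell had -0.10, with 2 past it, both lower. The CUB-domain proteases had 0.31, with 5 past it, none lower. The ABT1 row chosen by the rule differed by -0.28 there, and a link to any list was not tested. The 4 tested Fat and Dachsous cadherins had a median of 0.01, with 2 at an unadjusted p under 0.05. FAT1 averaged 61.5 FPKM in PG ESC3, 79.5 in PG ESC7 and 71.6 in IVF ESC11 (-0.03 ± 0.04, adjusted p = 0.612). DCHS1 averaged 9.50 FPKM in PG ESC3, 12.3 in PG ESC7 and 5.72 in IVF ESC11, a difference of 0.81 ± 0.05 (adjusted p = 3.32e-06) that was under the fold minimum. The 7 tested kinases related to FAM20, the family of secretory-pathway kinases to which four-jointed belongs, had a median of 0.00, with 4 at an unadjusted p under 0.05. FAM20B, a xylosylkinase of proteoglycan synthesis, averaged 17.2 FPKM in each PG line and 23.4 in IVF ESC11 (-0.42 ± 0.04, adjusted p = 8.79e-05). FAM20C, the Golgi casein kinase, averaged 25.2 FPKM in PG ESC3, 21.3 in PG ESC7, 18.7 in IVF ESC11 and 20.1 in fibroblasts (0.29 ± 0.08, adjusted p = 0.0276), a difference of the opposite sign.

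Rows whose profile over the 12 libraries was most like that of each gene were found by the root mean square difference between log2(FPKM + 1) profiles, each centred on its own mean. The second ABT1 row was nearest to KBTBD6 (0.366), followed by NAP1L5 (0.445) and PLAGL1 (0.502). ZNF791 and FJX1, far apart on chromosome 2, were close to each other (0.188). The nearest to FJX1 was PLAGL1 (0.160), after which came ZNF791 and NNAT (0.230), and ZNF791 was also followed by NNAT (0.200) and PLAGL1 (0.281). NAP1L5, PLAGL1 and NNAT were on the list of paternally expressed imprinted genes given above. All these profiles share the same libraries and the same low PG levels that chose the genes, so the likeness is a description of level alone.

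The nearest rows to PAMR1 were NT5DC1 (0.263), FUT4 (0.282) and NNAT (0.309). NT5DC1 averaged 6.28 FPKM in PG ESC3, 5.71 in PG ESC7, 24.6 in IVF ESC11 and 9.74 in fibroblasts, and shared with PAMR1 a fibroblast level between those of the PG lines and IVF ESC11. The second ABT1 row was nearest to NAP1L5 (0.164), TSPAN6 (0.243) and PLAGL1 (0.351). The ABT1 row chosen by the rule had other neighbours, ZNF619 (0.0966), CH242-123K13.1 (0.0986) and HAUS4 (0.109).

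**Figure D5:**
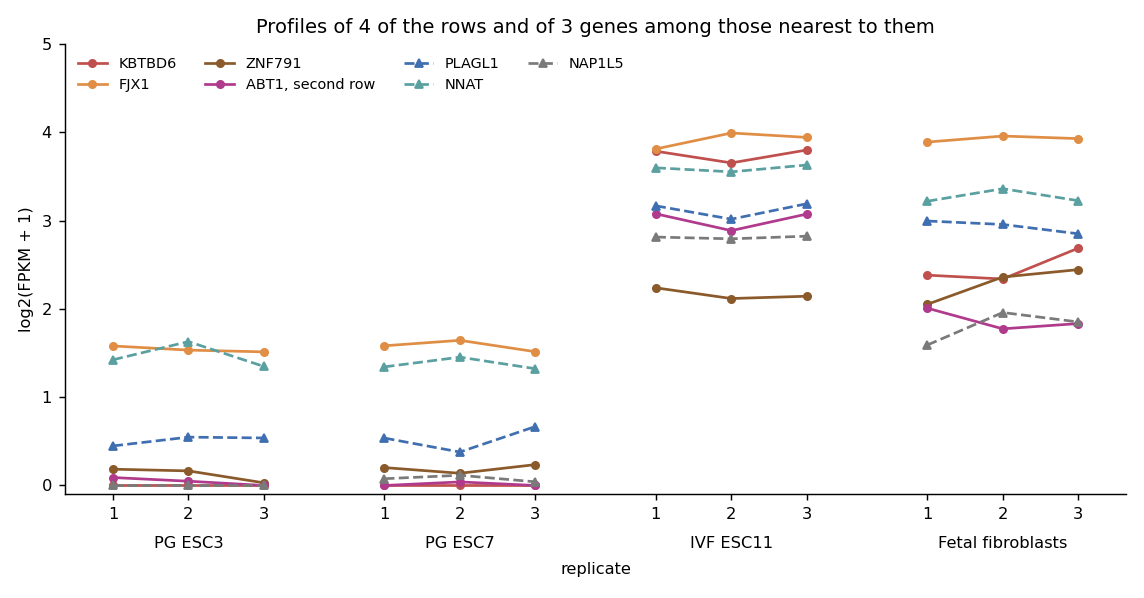
Log2(FPKM + 1) (y axis) of KBTBD6, FJX1, ZNF791 and the second ABT1 row (solid lines) and of PLAGL1, NNAT and NAP1L5 (dashed lines) in the 3 replicates (x axis) of PG ESC3, PG ESC7, IVF ESC11 and fetal fibroblasts; lines join libraries of a group only. All 7 are lower in every PG library than in any IVF ESC11 or fibroblast library.

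Few annotated rows had such levels. Of 9464 with a mean of at least 5 FPKM in IVF ESC11, 23 (0.243%) had means in both PG lines of at most 25% of it. The second ABT1 row, KBTBD6, PAMR1 and FJX1 were 4 of them, and ZNF791 with a mean of 3.49 FPKM in IVF ESC11 was below the limit of 5. Such levels chose the genes, so their place among the 23 is no finding. The other 19 lay on 11 chromosomes or scaffolds. Among these, counting rows with a symbol, the highest means in IVF ESC11 belonged to ELL (4444 FPKM), SNRPN (154), TSPAN6 (40.7), MNAT1 (29.8), LIMCH1 (24.3), FAM135B (18.9), HSPA8 (16.3), TXNDC16 (13.5), SGCE (12.1) and WDR72 (11.4).

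Several of these means rested on 1 or 2 libraries of IVF ESC11. ELL had 448, 12432 and 454 FPKM there, against 462 to 721 in the PG libraries, and HSPA8 had 48.9, 0 and 0.0313. LIMCH1 had 38.8, 0 and 34.0 FPKM in IVF ESC11, TXNDC16 had 29.8, 0 and 10.6, FAM135B had 30.1, 26.5 and 0.194, and WDR72 had 1.83, 30.6 and 1.74. In a split made after the values were seen, the PG and IVF ESC11 libraries overlapped for 11 of the 23 rows, and all PG libraries were below all IVF ESC11 libraries for the other 12. These 12 were KBTBD6, PAMR1, FJX1, the second ABT1 row and 8 others: SNRPN, TSPAN6, MNAT1, NNAT, PLAGL1, NAP1L5 and both SGCE rows. Fibroblasts had a mean of at least 1 FPKM for each of the 8, which lay on 6 chromosomes or scaffolds.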

How the data were processed

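The deposited FPKM values, computed by the authors for 30012 gene rows in 12 libraries, were taken as they stood. Tools listed in the submitters' processing notes are STAR 2.4.0b and Cufflinks 2.1.1, and the build is Sscrofa10.2; their roles are not given. Strand use and the handling of reads with several matches were not given in the sources used here. Polyadenylated RNA was read as 100 bp paired ends.

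The deposited values were put on the log2(FPKM + 1) scale and not rescaled. The 18278 rows with at least 1 FPKM in at least 3 libraries were fitted as 4 group means over all 12 libraries with limma 3.58.1 (R 4.3.3), with variances that followed the mean. Tests were two-sided and adjusted over all rows tested. On data simulated for the PG lines minus IVF ESC11 with 18278 rows, 95% of 100 rows changed by 1.5 log2 units and 98% of 100 changed by 2.5 were called. The changed rows were drawn from the more abundant rows alone, with independent normal noise, so this recovery does not cover rows of low level. Python 3.11.15 with pandas 2.3.3 gave the tables, and matplotlib 3.10.9 the figures.

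The members, gene lists and comparisons were chosen with earlier results of these data known. Named genes were the members, the nearest tested row with a symbol on each side, called flanking rows, the 3 nearest profiles, up to 10 other low rows, and up to 4 called or else the 2 most abundant genes of each list. LDLRAD3, PDHX, TIAM1, LUM, POSTN, PCDH8, MUC16, ZNF136 and the farther ZNF709 row were named after their values were seen. So were HIST1H2BM, HIST1H3E, FAM20C, LECT1, RNASEH2A and RBX1. Whether libraries of a group were separate cultures is not in the labels, so p-values cover only the library spread, perhaps a technical one. Alternatives covered the pseudocount, the filter, scaling, the variance model, the samples in the fit, the replicate number as a block and each library left out.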

Additional observations from a re-analysis of the deposited data

Results flagged for a closer look

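The parthenogenetic lines were compared, PG ESC7 minus PG ESC3, on the rows of the 5 genes and on chosen flanking rows. Those flanking rows were named by the rule, or had been called in a comparison of single lines. Of the rows checked, 8 had an adjusted p under 0.05 in limma. Flanking rows outside this choice passed it too, such as LECT1 near KBTBD6 (0.94, adjusted p = 0.00144) and RNASEH2A near ZNF791 (-0.58, adjusted p = 3.01e-05). The 8 are therefore not all the flanking rows that differed between the lines. A pair of histone rows passed the fold minimum of 1, and the other 6 rows did not. Of all tested rows, 39.9% passed that adjusted p in this comparison. The histone rows were checked because they had been called in this same comparison, so nothing is read from the count of 8. ABT1, on the row chosen by the rule, differed by -0.28 (adjusted p = 0.0115), with all 3 PG ESC7 libraries below all 3 PG ESC3 libraries. TRIM44, next to FJX1 and PAMR1, differed by -0.91 (adjusted p = 3.19e-07), again without overlap. SUGT1, next to KBTBD6, differed by -0.13 (adjusted p = 0.0216). CD44, on the far side of PAMR1, differed by 0.27 (adjusted p = 0.0291), and HMGN4, next to ABT1, by 0.29 (adjusted p = 0.0480). PCDH8, 371 kb from KBTBD6, differed by -0.73 (adjusted p = 1.22e-05), without overlap. The histone rows, HIST1H2BM with -1.04 (adjusted p = 0.000194) and HIST1H3E with -1.16 (adjusted p = 0.0101), lie near ABT1.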

How the results depend on the processing

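Over all rows, the pseudocount moved the counts of calls most. With 0.1 in place of 1, calls were 673 for the PG lines minus IVF ESC11 (402 with a pseudocount of 1), 747 for PG ESC3 minus IVF ESC11 (454), 904 for PG ESC7 minus IVF ESC11 (537) and 1148 for PG ESC7 minus PG ESC3 (618). With 5, they were 225, 264, 248 and 219 in the same order, and a filter at 5 FPKM left 387 in PG ESC7 minus PG ESC3. Quantile normalization split the calls of the PG lines minus IVF ESC11 into 140 lower and 187 higher, against 124 lower and 278 higher without it. Flanking rows called were 3 with a pseudocount of 0.1 (TRIM44, PCDH8 at 1.06 and MUC16 at -1.13) and 0 with 5. MUC16 had passed the filter through IVF ESC11 alone.

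The low levels of KBTBD6, PAMR1, ZNF791, FJX1 and the second ABT1 row kept their sign under every alternative that held the row. PAMR1 and ZNF791 did not reach 5 FPKM in 3 libraries, so the filter at 5 FPKM left them out. These levels chose the genes, so the kept sign is no test. The sizes moved with the pseudocount. KBTBD6 was at -6.97 with 0.1 and -1.80 with 5, and ZNF791 at -4.09 with 0.1 and -0.73 with 5. In PG ESC7 minus PG ESC3, quantile normalization turned PAMR1 to -0.12, FJX1 to -0.12 and ZNF791 to -0.028, given as values with no test. The ZNF709 neighbour of ZNF791 turned to -0.016 with quantile normalization and -0.016 with median-ratio scaling. The cause of these moves was not tested.

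Leaving out each library in turn gave 302 to 414 calls for the PG lines minus IVF ESC11, 362 to 480 for PG ESC3 minus IVF ESC11, 428 to 567 for PG ESC7 minus IVF ESC11 and 565 to 620 for PG ESC7 minus PG ESC3, with 1 flanking row called each time. It moved PAMR1 between -0.031 and 0.075 in PG ESC7 minus PG ESC3, SUGT1 between -0.024 and 0.027 and ZNF709 between -0.031 and 0.094 in the PG lines minus IVF ESC11. The replicate numbers did not pair the libraries (correlations of deviations from -0.09 to 0.087 over 18 pairs of same-numbered libraries), and with the replicate number as a block 384 rows were called in the PG lines minus IVF ESC11. Summing both ABT1 rows, chosen after seeing the data, moved ABT1 to 0.02. The IVF origin rests on 1 line, and the read depth behind values near 0 is unknown.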
